A study of Arabidopsis thaliana with 6 samples.

Results

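The changes that both overexpressed forms of JcERFVII2 had in common were described by setting the 4 libraries of the transgenic lines, as 1 group, against the 2 libraries of wild type Col-0, over all genes of the deposited count table. JcERFVII2 is a group VII ethylene response factor of the oilseed shrub Jatropha curcas, and both lines expressed it from the CaMV 35S promoter in Arabidopsis thaliana of the Col-0 ecotype. MA-Line1 (35S:MA-JcERFVII2, 2 libraries) carried the form whose cysteine after the initial methionine is replaced by alanine, and MC-Line3 (35S:MC-JcERFVII2, 2 libraries) carried the unaltered protein. All 6 libraries, the whole series, came from polyA RNA of whole seedlings 10 d old, grown on plates at 23 °C with 16 h of light and 8 h of dark, in aerobic conditions, and collected at the end of the light period. The age is that of the labels, and the paper on these data gives a younger one. A change was called common when it passed edgeR's quasi-likelihood test with a Benjamini-Hochberg adjusted p below 0.05 and all 4 transgenic libraries lay on one side of both Col-0 libraries. Each form was represented by 1 line, so a property of the protein form and a property of the line cannot be told apart, and no line with an empty construct was analysed here. JcERFVII2 itself is not among the Arabidopsis genes counted, so its level could not be checked against the labels.

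Group VII ethylene response factors are the oxygen sensors of plants. In air, the cysteine that follows the initial methionine is oxidised by plant cysteine oxidases, the N-terminus is arginylated, and the protein is recognised by the ubiquitin ligase PRT6 and degraded. When oxygen is low the factors persist and activate a core set of genes for fermentation, hemoglobin and oxygen sensing. Replacing the cysteine by alanine takes the protein out of this pathway, which makes the MA form stable in air. The comparison of both lines with Col-0 asks which transcripts differ whichever form is present.

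The forms differ at the start of the reading frame, as the cloning primers of the study show; capitals mark the second codon, which encodes alanine in MA and cysteine in MC. Counted from the A of the start codon, the substitutions between MC and MA were T4G and G5C.
MA: atgGCCggaggtgctattatttc
MC: atgTGCggaggtgctattatttc

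Sequences of the phosphate starvation response are shown because its members made up several of the largest common decreases. The microRNA miR399 is made under phosphate starvation and represses PHO2, a ubiquitin-conjugating enzyme that limits phosphate uptake, and the noncoding RNAs IPS1 and AT4 sequester it as target mimics. The mature sequences, from the RefSeq annotation of TAIR10.1, share the seed marked in capitals (bases 2 to 8), and the mimic sites have in capitals the stretches that pair with miR399b, the closest member. In both mimic sites 18 of 21 miRNA positions paired, and 3 additional bases of the site stood unpaired at its centre. The miR399d sequence lies at chr2:14442988-14443008 on the minus strand, miR399c at chr5:24962568-24962588 on the plus strand, the IPS1 site at chr3:3051224-3051247 and the AT4 site at chr5:895149-895172, both on the plus strand.
miR399d: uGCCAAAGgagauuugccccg
miR399c: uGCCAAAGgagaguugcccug
IPS1 site: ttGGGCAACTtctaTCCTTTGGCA
AT4 site: ttGGGCAACTtcgaTCCTTTGGCA

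Among the upstream sequences, 1 gene of each direction is shown, SPX3 with 2 matches of the phosphate motif P1BS (GNATATNC, the site known to be bound by PHR1) and the defensin PDF1.2 with 1 match of the core of the GCC-box (GCCGCC, the site known to be bound by ethylene response factors). Each is the 300 bases before the annotated start of the gene in TAIR10.1, read in the direction of the gene, with the matches in capitals. The GCC-box core (both strands) was found in 3.04% of such windows of common increases and 2.38% of all windows. For common increases of more than 2-fold its share was 3.36%. The SPX3 window is chr2:18606110-18606409 on the plus strand, with matches at 213 to 206 and 90 to 83 bases before the start, and the PDF1.2 window is chr5:17907639-17907938 on the minus strand, with its match at 222 to 217 bases.
SPX3: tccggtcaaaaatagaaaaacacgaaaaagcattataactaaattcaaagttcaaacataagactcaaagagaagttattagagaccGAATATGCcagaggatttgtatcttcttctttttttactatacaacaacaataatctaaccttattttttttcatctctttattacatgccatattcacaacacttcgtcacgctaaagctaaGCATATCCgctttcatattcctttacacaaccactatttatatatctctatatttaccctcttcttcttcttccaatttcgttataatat
PDF1.2: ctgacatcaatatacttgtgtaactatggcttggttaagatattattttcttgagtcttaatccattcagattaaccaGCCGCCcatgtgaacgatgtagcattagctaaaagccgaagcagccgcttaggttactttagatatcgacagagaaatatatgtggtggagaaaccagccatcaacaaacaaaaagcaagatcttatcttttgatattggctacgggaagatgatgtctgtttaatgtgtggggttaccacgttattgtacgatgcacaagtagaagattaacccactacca

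The count table listed 28775 genes, of which 4158 were at 0 in all 6 libraries and 21206 passed edgeR's filter on low counts and were tested. The libraries held 53084008 to 65271057 counts, and the TMM scaling factors were 1.02 to 1.06 in the transgenic libraries and 0.92 to 0.948 in Col-0. Without these factors, on library size alone, 3822 genes were common and higher and 1037 common and lower, so that 78.7% of the common changes were increases against 47.9% with TMM, and the median log2 fold change of all genes was 0.17 against 0.018. All changes below are relative to the TMM scaling unless a scaling is named. Levels are given as CPM, the counts of a gene relative to the TMM-scaled library size. Of the 12 root markers 1 was called, the endodermis regulator SCR, with 27.5 and 31.4 CPM in MA-Line1, 31.6 and 32.2 CPM in MC-Line3, and 39.8 and 40.4 CPM in Col-0 (log2 fold change -0.39, adjusted p = 0.0237, 0.0611 on library size alone, 0.0505 without MA-Line1 replicate 2, 0.104 without Col-0 replicate 1 and 0.126 without Col-0 replicate 2). The summed level of the root markers is given beside the phosphate genes below. None of the 8 shoot markers was called (2 were higher on library size alone), with a sum of 51.9 to 63.1 CPM in the transgenic libraries and 54.9 and 53.5 CPM in Col-0, and none of the 6 seed and senescence markers had enough counts to be tested. In bulk seedlings, fewer cells of a type and less RNA per cell cannot be told apart. The series calls its replicates independent and biological; what was kept separate is not stated, so the p-values measure the spread between these libraries. Between replicates the log2 difference had an SD over genes of 0.32 in MA-Line1, 0.33 in MC-Line3 and 0.40 in Col-0.

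In all, 3290 genes (15.5% of those tested) were called, and each of them had all 4 transgenic libraries on one side of both Col-0 libraries. Of these, 1577 were higher (7.44%) and 1713 lower (8.08%) in the JcERFVII2 lines. Libraries that did not overlap, with or without a call, were found for 4931 genes in the upward direction (23.3%) and 4716 in the downward direction (22.2%). Changes of more than 2-fold were mostly decreases, with 393 genes lower (1.85%) and 149 higher (0.703%). The genes of the common increases took 7.95 to 8.44% of all CPM in the transgenic libraries and 5.34 and 5.27% in Col-0, and those of the common decreases 14.1 to 14.7% against 19.2 and 19.9%. With 2 Col-0 libraries the number of calls rested on both. Leaving out Col-0 replicate 1 gave 827 calls and leaving out Col-0 replicate 2 gave 303, against 1954 without MA-Line1 replicate 1, 2090 without MA-Line1 replicate 2, 2603 without MC-Line3 replicate 1 and 2249 without MC-Line3 replicate 2. Common changes that were called in each of these 6 fits numbered 243, with 66 higher and 177 lower. Among the decreases of more than 2-fold, Col-0 replicate 2 was the Col-0 library farther from the transgenic libraries in 331 of 393 genes (84.2%), whereas over all genes it was above replicate 1 in 51.7%.

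**Figure D1:**
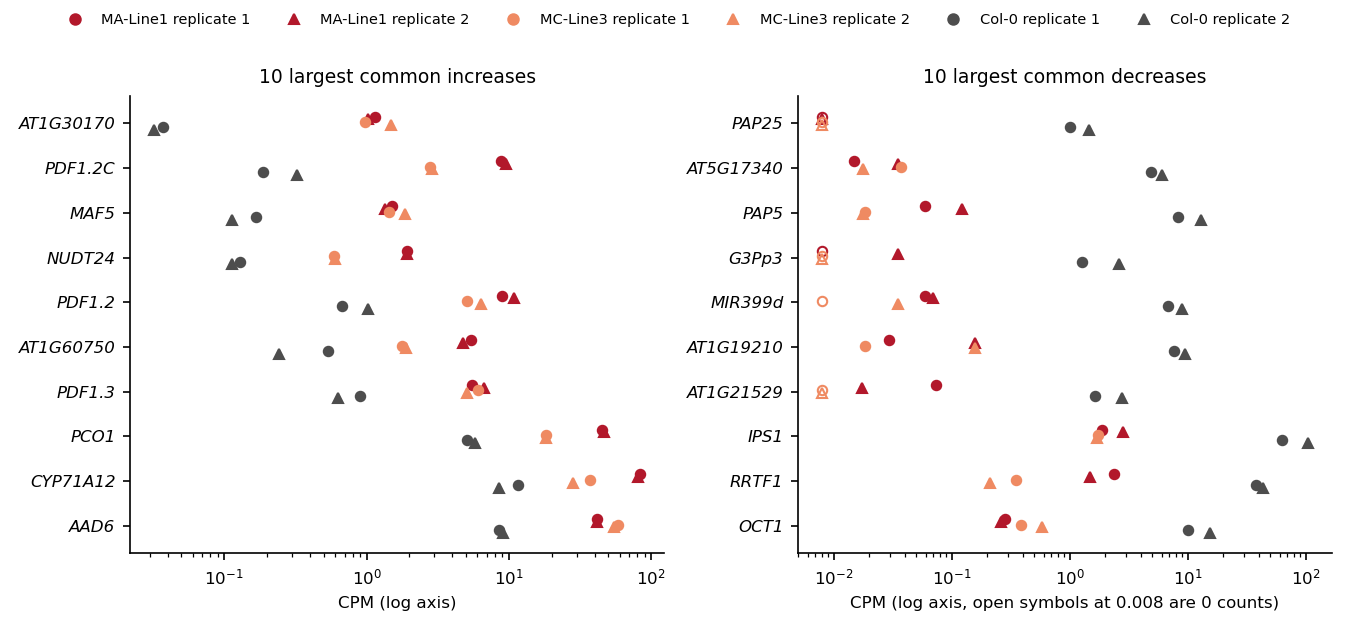
CPM on a log axis of the 10 largest common increases (left) and decreases (right) with a mean of at least 1 CPM in the group where they were higher, with 1 symbol per library and open symbols for 0 counts. For each gene all 4 transgenic libraries lie on one side of both Col-0 libraries, as the rule requires. MA-Line1 and MC-Line3 lie apart for PCO1, with 45.4 and 46.4 CPM against 18.3 and 18.2 CPM.

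The largest common increase was that of AT1G30170 (chr1:10607888-10609618), which encodes a protein of the DUF295 family. It had 1.15 and 1.03 CPM in MA-Line1, 0.98 and 1.48 CPM in MC-Line3, and 0.0372 and 0.0323 CPM in Col-0, that is 274 counts in the 4 transgenic libraries and 4 counts in Col-0. Its log2 fold change was 4.98 (SE 0.45, adjusted p = 0.0028), with no line difference called. MAF5 (chr5:25997504-26002619), a MADS-box factor of the FLC family that is known to affect flowering time, had 1.52 and 1.34 CPM in MA-Line1, 1.44 and 1.86 CPM in MC-Line3, and 0.167 and 0.113 CPM in Col-0 (log2 fold change 3.45, SE 0.34, adjusted p = 0.00361). The transgenic libraries of both genes lay together far above Col-0, a pattern that the test favours. Both calls held in each of the 6 fits that left out a library. The nudix hydrolase gene NUDT24 and the oxidoreductase gene AT1G60750 rose as well, by 3.35 and 3.16 on the log2 scale (adjusted p = 0.0293 and 0.0248), MA-Line1 exceeding MC-Line3 by 1.68 and 1.47. Neither call held without Col-0 replicate 1 (adjusted p = 0.151 for NUDT24 and 0.0957 for AT1G60750) or without Col-0 replicate 2 (0.171 and 0.162), nor, for NUDT24, without MA-Line1 replicate 1 (0.0544) or replicate 2 (0.0532).

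Of 49 core hypoxia-responsive genes, the set known to rise in low oxygen across cell types of Arabidopsis, 48 were tested. Of these, 15 were higher in common and 3 lower, and their median log2 fold change was 0.49, against 0.02 over all genes. The list, like the others below, was drawn up with earlier results of these data known. The increases included oxygen sensing, hemoglobin and fermentation genes. The plant cysteine oxidase PCO1 (chr5:4898641-4900734), which oxidises the N-terminal cysteine of the factors themselves, had 45.4 and 46.4 CPM in MA-Line1, 18.3 and 18.2 CPM in MC-Line3, and 5.1 and 5.82 CPM in Col-0. Its log2 fold change was 2.55 (SE 0.50, adjusted p = 0.0199), and MA-Line1 exceeded MC-Line3 by 1.33. All 4 transgenic libraries lay above Col-0, those of MA-Line1 farthest, and the call was lost without Col-0 replicate 1 (adjusted p = 0.134) or replicate 2 (0.128) and with limma voom (0.0532). PCO2, its paralog, had 17.8 and 15.9 CPM in MA-Line1, 13.4 and 13.4 CPM in MC-Line3, and 3.22 and 3.96 CPM in Col-0 (log2 fold change 2.07, adjusted p = 0.0027).

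The hypoxia-inducible desaturase AAD6 (chr1:16577521-16579722), which acts on stearoyl-acyl carrier protein, had 41.8 and 41.4 CPM in MA-Line1, 58.4 and 54.4 CPM in MC-Line3, and 8.54 and 9.07 CPM in Col-0 (log2 fold change 2.48, SE 0.18, adjusted p = 0.00222). The phytoglobin gene HB1 (chr2:6982531-6983777), whose product scavenges nitric oxide, had 53.2 and 55.6 CPM in MA-Line1, 45.2 and 36.7 CPM in MC-Line3, and 10.1 and 12.4 CPM in Col-0 (log2 fold change 2.08, SE 0.20, adjusted p = 0.00323). For both genes the groups did not overlap, as the rule requires. The lines themselves differed in opposite directions, AAD6 being lower and HB1 higher in MA-Line1 (MA-Line1 minus MC-Line3 -0.44 and 0.41 on the log2 scale). The fermentation genes ADH1 and PDC1 had smaller log2 fold changes. ADH1, alcohol dehydrogenase, had 21.2 and 21.9 CPM in MA-Line1, 29.5 and 26 CPM in MC-Line3, and 10.8 and 10.3 CPM in Col-0 (log2 fold change 1.22, adjusted p = 0.00573). PDC1, pyruvate decarboxylase, had 7.15 and 6.68 CPM in MA-Line1, 11.3 and 12 CPM in MC-Line3, and 3.42 and 3.44 CPM in Col-0 (log2 fold change 1.44, adjusted p = 0.0203). Its paralog PDC2 was not called (log2 fold change -0.17, adjusted p = 0.359). Among regulators, HRA1, a trihelix repressor of the response, rose by 0.81 (adjusted p = 0.0081), whereas the group VII factor HRE2 and the repressor LBD41 had log2 fold changes of 2.02 and 1.41 without passing the pooled test (adjusted p = 0.0878 and 0.0799), and MA-Line1 exceeded MC-Line3 in both (by 1.75 and 1.3, adjusted p = 0.000573 and 2.94e-06).

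Not all members went up. PP2-A13, a phloem lectin-like gene of the list, had 36.2 and 36.5 CPM in MA-Line1, 50.6 and 47.9 CPM in MC-Line3, and 133 and 107 CPM in Col-0 (log2 fold change -1.49, adjusted p = 0.00452), and the calmodulin-like gene CML38 and AT5G42200 were also lower (-1.11 and -0.57). Over the list the lines differed in 32 of 48 members, 15 higher and 17 lower in MA-Line1. With MA-Line1 alone set against Col-0, 23 members were higher and 10 lower, and with MC-Line3 alone 23 were higher and 9 lower. Over all genes these fits had 3411 higher and 3788 lower for MA-Line1, and 2244 higher and 2971 lower for MC-Line3. Without Col-0 replicate 1, 6 members were common and higher and 2 lower, and without replicate 2, 5 and 1. AAD6, HB1, PCO2, AT3G03270 (a universal stress protein) and AT3G27220 (a Kelch repeat protein) were higher, and PP2-A13 lower, in each of the 6 fits that left out a library. The hypoxia-responsive promoter element HRPE, searched on both strands of the 300 bases upstream, was found in 5 of the 48 genes (10.4%), against 1.04% of all windows. Of these 5, ADH1 and AT4G10270 were common increases, and LBD41, NIP2;1 and AT1G05575 (log2 fold change -0.94) were not called. Among the windows of all common increases the share was 1.27%.

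Of the 12 endogenous group VII and N-degron pathway genes, EBP (RAP2.3, the Arabidopsis factor of the same clade) and PRT6 were lower and none was higher (median log2 fold change 0.00). On library size alone the median was 0.15, with 1 member higher and 1 lower. EBP had 943 and 971 CPM in MA-Line1, 815 and 789 CPM in MC-Line3, and 1250 and 1740 CPM in Col-0 (log2 fold change -0.76, SE 0.15, adjusted p = 0.0213). The groups did not overlap, as the rule requires, and the call was lost without Col-0 replicate 2. PRT6 differed little, with 44.6 to 54 CPM in the transgenic libraries and 65.5 and 61.5 CPM in Col-0 (log2 fold change -0.36, adjusted p = 0.0463), and its call was lost in each fit that left out a library (adjusted p = 0.0514 to 0.232) and on library size alone (0.185). RAP2.2, RAP2.12, HRE1, PCO3, PCO4, PCO5, ATE1 and ATE2 had log2 fold changes between -0.20 and 0.31 and none was called.

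The plant defensins stood out among the largest increases. These small secreted antifungal peptides are known targets of the ethylene branch of the jasmonate response. PDF1.2C (chr5:17908850-17909507) had 8.74 and 9.55 CPM in MA-Line1, 2.81 and 2.86 CPM in MC-Line3, and 0.186 and 0.323 CPM in Col-0 (log2 fold change 4.53, SE 0.79, adjusted p = 0.0139). PDF1.2 (chr5:17906968-17907638) had 8.97 and 10.8 CPM in MA-Line1, 5.09 and 6.41 CPM in MC-Line3, and 0.67 and 1.02 CPM in Col-0 (3.2, SE 0.39, adjusted p = 0.00536). PDF1.3 (chr2:11087280-11088001) had 5.51 and 6.73 CPM in MA-Line1, 6.09 and 5.04 CPM in MC-Line3, and 0.893 and 0.63 CPM in Col-0 (2.94, SE 0.23, adjusted p = 0.00264). All 3 genes had transgenic libraries well above Col-0, PDF1.3 with no line difference called and the others higher in MA-Line1, by 1.69 for PDF1.2C and 0.78 for PDF1.2. PDF1.2b rose by 2.33 (adjusted p = 0.0074). These paralogs hold identical stretches of at least 50 bases, up to 17.5% of the span of PDF1.3, so reads may be shared between them. The PDF1.3 call held in each fit that left out a library, that of PDF1.2 was lost without Col-0 replicate 2 (adjusted p = 0.053), and that of PDF1.2C without Col-0 replicate 1 (0.103) or replicate 2 (0.0983) and with limma voom (0.121).

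Outside the defensins, the ethylene list held 1 common change. Over all genes tested 7.44% were common and higher and 8.08% common and lower. Of the 16 members of the ethylene list, 4 were higher in common, all of them defensins, and 1 lower, with a median log2 fold change of 0.12. The lower one was EBF1 (-0.73, adjusted p = 0.0165), an F-box protein that targets EIN3 for degradation. ORA59 and ERF1, regulators known to activate PDF1.2, had log2 fold changes of 0.16 and -0.03 and were not called (adjusted p = 0.609 and 0.987), nor were the chitinase genes HCHIB (-0.64) and PR4 (0.30). Without Col-0 replicate 1 the list had 3 increases and 1 decrease, and without replicate 2 it had 1 increase. The 12 salicylic acid genes held 1 common change, the decrease of DMR6 (-0.69, adjusted p = 0.00554 and 0.053 without Col-0 replicate 2), and their median was -0.20.

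Genes of camalexin and indole cyanogenic metabolism, defence compounds made from tryptophan, included 3 common increases among 8 tested (median log2 fold change 1.08). Over all genes tested 7.44% were common increases. With MA-Line1 alone set against Col-0 the median of the list was 1.39, and with MC-Line3 alone it was 0.08. CYP71A12 (chr2:13099486-13101371) had 83.1 and 80.5 CPM in MA-Line1, 36.9 and 28.4 CPM in MC-Line3, and 11.6 and 8.52 CPM in Col-0 (log2 fold change 2.51, SE 0.52, adjusted p = 0.0224). CYP82C2 (chr4:15462350-15464563) had 12.3 and 11.3 CPM in MA-Line1, 16.6 and 14.1 CPM in MC-Line3, and 4.86 and 1.92 CPM in Col-0 (2.01, SE 0.37, adjusted p = 0.0163). CYP71A13, the third, rose by 0.79 (adjusted p = 0.0427). MA-Line1 exceeded MC-Line3 by 1.33 for CYP71A12, and no line difference was called for CYP82C2. Stretches identical to related genes cover 17.2% of CYP71A12 and 19.6% of CYP82C2, and a gene on the other strand overlaps 27.5% of CYP71A13. No increase of the list held in every fit that left out a library: CYP71A12 was lost without Col-0 replicate 1 (0.115) or 2 (0.157) and with the replicate number as a block (0.0523), CYP82C2 without Col-0 replicate 2 (0.0567), and CYP71A13 in 5 of the 6 fits (0.0548 to 0.208). PAD3, which makes camalexin itself, had a log2 fold change of 1.62 and was not called (adjusted p = 0.215).

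Genes for making ribosomes held a large number of common increases. This group, and those for the nucleolus and for mitochondrial import, were collected by words of the RefSeq product names after the calls had been seen, so they are given as a description. Of 312 genes named as ribosomal proteins, 191 were higher in common (61.2%, against 7.44% of all genes tested) and 2 lower (0.641%, against 8.08%), and 284 had a log2 fold change above 0. The changes were small, with a median of 0.41 on the log2 scale, and the lines differed in 21 of the 312. Together these genes took 4.57 and 4.72% of the CPM in MA-Line1, 4.71 and 4.85% of the CPM in MC-Line3, and 3.92 and 3.59% of the CPM in Col-0. Among those whose product names carry a eukaryote-type family number, ending in e, or name the large or small cytosolic subunit, 93 of 135 genes were higher (68.9%). The 12 plastid ribosomal proteins held 1 increase and 1 decrease, with a median of 0.04.

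The pooled test counts spread among the transgenic libraries as error, so called genes tend to have close libraries. A larger increase was that of AT5G40040, with 0.606 and 0.73 CPM in MA-Line1, 0.666 and 1.02 CPM in MC-Line3, and 0.093 and 0.113 CPM in Col-0 (log2 fold change 2.84, SE 0.43). Genes with a small SE are given next. AT5G56710, of the L31e family of the large subunit, had 222 and 216 CPM in MA-Line1, 231 and 231 CPM in MC-Line3, and 137 and 123 CPM in Col-0 (log2 fold change 0.79, SE 0.08, adjusted p = 0.00391). AT2G27710, an acidic protein of the stalk that recruits translation factors, had 223 and 235 CPM in MA-Line1, 222 and 232 CPM in MC-Line3, and 142 and 125 CPM in Col-0 (0.77, SE 0.08, adjusted p = 0.00436). AT3G06680, of the L29e family, had 50.6 and 53.5 CPM in MA-Line1, 50.2 and 52.9 CPM in MC-Line3, and 31.2 and 31.2 CPM in Col-0 (0.73, SE 0.06, adjusted p = 0.00279). In AT5G56710, AT2G27710 and AT3G06680 the spread among the transgenic libraries was a small part of their distance from Col-0, a pattern that the test favours. The 49 nucleolar and rRNA-processing genes, which build the ribosomal subunits from precursor RNA, had 27 common increases (55.1%), no decrease and a median of 0.48. RBL (AT3G55510), of the Noc2 family of pre-ribosome export factors, had 14.1 and 13.8 CPM in MA-Line1, 12.9 and 13.6 CPM in MC-Line3, and 6.92 and 6.5 CPM in Col-0 (1.02, SE 0.09, adjusted p = 0.00281). AT5G48240, of the Rrp15 family, had 23.9 and 23 CPM in MA-Line1, 25.3 and 23 CPM in MC-Line3, and 12.6 and 9.37 CPM in Col-0 (1.12, SE 0.13, adjusted p = 0.00488). The lines differed in 1 of the 49 genes.

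The 33 translocase genes that import proteins into mitochondria had 17 common increases (51.5%), no decrease and a median of 0.40, and the lines were called different in none of them. TIM13, a small chaperone of the intermembrane space, had 32.5 and 33 CPM in MA-Line1, 30.8 and 30.2 CPM in MC-Line3, and 17.4 and 18.7 CPM in Col-0 (log2 fold change 0.81, SE 0.08, adjusted p = 0.00323). TOM6, a small subunit of the outer membrane pore, had 44.1 and 42.7 CPM in MA-Line1, 42.3 and 43 CPM in MC-Line3, and 27 and 26.8 CPM in Col-0 (0.68, SE 0.06, adjusted p = 0.0028). In both genes the 4 transgenic libraries lay close together and above Col-0, a pattern that the test favours. The increases were present under each scaling, with 180 ribosomal protein genes higher under DESeq2 size factors and 239 on library size alone, and with medians of 0.40 and 0.56. The number of calls depended on both Col-0 libraries. It was 134 to 176 ribosomal protein genes without any 1 transgenic library and fell further without either Col-0 library, which leaves 1 control. The numbers of nucleolar and translocase genes called also fell without either Col-0 library. The median of the ribosomal protein genes was then 0.45 without Col-0 replicate 1 and 0.36 without replicate 2. Ribosomal protein genes are short, with a median of 992 exon bases against 1750 over all genes, and increases were more frequent among short genes. Among genes of up to 1243 exon bases, 152 of 237 ribosomal protein genes (64.1%) and 455 of 5028 other genes (9.05%) were higher. From there up to 1750 bases the counts were 34 of 65 (52.3%) and 403 of 5203 (7.75%), and above 2355 bases 216 of 5261 other genes (4.11%) were higher. Many ribosomal proteins are encoded by several near-identical genes, between which reads may be shared, and the part of this and of length in the counts was not tested.

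**Figure D2:**
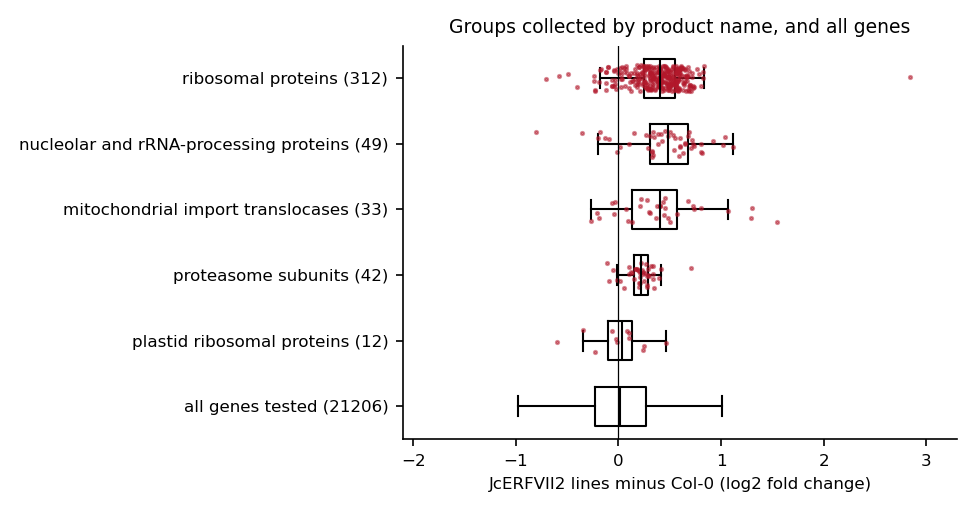
Log2 fold change (JcERFVII2 lines minus Col-0) of each tested gene of 5 groups collected by product name, drawn as points with boxes for the quartiles and median and whiskers to 1.5 times the box, and the box of all 21206 genes tested. The medians are 0.41 for ribosomal proteins, 0.48 for nucleolar genes and 0.40 for translocases, against 0.04 for plastid ribosomal proteins and 0.02 for all genes.

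The phosphate starvation genes fell together. Of 30 listed, 29 were tested, 27 were lower in common and none higher, and 28 had all 4 transgenic libraries below both Col-0 libraries. Over all genes tested 8.08% were lower in common, and 22.2% had all 4 transgenic libraries below both Col-0 libraries. The median log2 fold change of the phosphate genes was -2.29. The summed level of the list was 814 and 814 CPM in MA-Line1, 582 and 529 CPM in MC-Line3, and 2510 and 3660 CPM in Col-0. The noncoding RNA IPS1 (chr3:3050989-3051530), whose miR399 site is printed above, had 1.86 and 2.85 CPM in MA-Line1, 1.74 and 1.7 CPM in MC-Line3, and 63.5 and 104 CPM in Col-0 (log2 fold change -5.36, SE 0.26, adjusted p = 0.00058). AT4 (AT5G03545), the other mimic, had 38.9 and 43.1 CPM in MA-Line1, 56.3 and 48.1 CPM in MC-Line3, and 392 and 643 CPM in Col-0 (-3.47, adjusted p = 0.00155). Col-0 replicate 2 was the higher of the Col-0 libraries for both mimics, and no line difference was called for either.

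The precursor loci of the microRNA itself were near 0 in the transgenic lines. MIR399d (chr2:14442978-14443077), the locus of the miR399d sequence above, had 4 and 4 counts in MA-Line1, 0 and 2 counts in MC-Line3, and 364 and 552 counts in Col-0 (log2 fold change -7.47, SE 0.45, adjusted p = 0.0015). MIR399c had 2 and 5 counts in MA-Line1, 1 and 0 counts in MC-Line3, and 44 and 68 counts in Col-0 (-4.74, adjusted p = 0.00908). Reads of polyA RNA report the precursor and not the mature microRNA. PHO2, the target, was not called, with 116 and 107 CPM in MA-Line1, 84.3 and 83.1 CPM in MC-Line3, and 87 and 99.8 CPM in Col-0 (0.06, adjusted p = 0.812).

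Purple acid phosphatases and transporters, which release and take up phosphate, had large decreases too. PAP25 (chr4:17173737-17175857) had no count in any of the 4 transgenic libraries and 54 and 91 counts in Col-0, which at a floor of 3 counts per library is at least 23.4-fold lower (adjusted p = 0.00914, 0.0639 without Col-0 replicate 1 and 0.0903 without replicate 2). PAP5 (chr1:19716402-19723725) had 0.0591 and 0.122 CPM in MA-Line1, 0.0185 and 0.0177 CPM in MC-Line3, and 8.32 and 12.9 CPM in Col-0 (log2 fold change -7.54, SE 0.46, adjusted p = 0.0015). Identical stretches elsewhere cover 13.5% of its span. The glycerol-3-phosphate permease gene G3Pp3 (chr1:10824637-10826405) had 2 counts in the 4 transgenic libraries together and 229 in Col-0, a ratio of Col-0 to the transgenic lines of 211 with a counting interval of 57.7 to 1750 (adjusted p = 0.00391). The phosphate transporter PHT1;8 had 0.163 and 0.0522 CPM in MA-Line1, 0.074 and 0.0707 CPM in MC-Line3, and 1.8 and 2.81 CPM in Col-0 (-4.62, SE 0.44, adjusted p = 0.00323), with 33.5% of its span repeated elsewhere. The main uptake transporters PHT1;1 and PHT1;4 fell by 1.43 and 1.88. In these genes the groups did not overlap, as the rule requires. All were off or nearly so in the transgenic libraries except the PHT1;1 and PHT1;4 transcripts, which stayed at 19.8 to 44.2 CPM.

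Genes of phosphate sensing and membrane lipid remodelling were lower as well. The SPX proteins bind inositol pyrophosphates and restrain the phosphate regulator PHR1, and their genes are themselves induced by starvation. SPX3 (chr2:18606410-18607853) had 3.19 and 2.85 CPM in MA-Line1, 0.481 and 0.3 CPM in MC-Line3, and 26.4 and 43.3 CPM in Col-0 (log2 fold change -4.33, SE 0.77, adjusted p = 0.0151). SPX1 had 86 and 83.2 CPM in MA-Line1, 38 and 39 CPM in MC-Line3, and 241 and 402 CPM in Col-0 (-2.38, adjusted p = 0.0118). The genes that replace phospholipids by galactolipids and sulfolipids also fell, among them MGD3 (-3.77, adjusted p = 0.0345), MGD2 (-2.42), SQD2 (-2.29) and SQD1 (-1.29), as did the phospholipases NPC4 (-3.09) and PLDP2 (-2.0). For most of these genes MC-Line3 was the lower line. The lines differed in 19 of 29 members, MA-Line1 being the higher in 18, by 2.95 on the log2 scale for SPX3 and 3.48 for MGD3. The members not called were PHT1;5 (-2.13, adjusted p = 0.0839) and PAP22 (-0.10, adjusted p = 0.901).

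**Figure D3:**
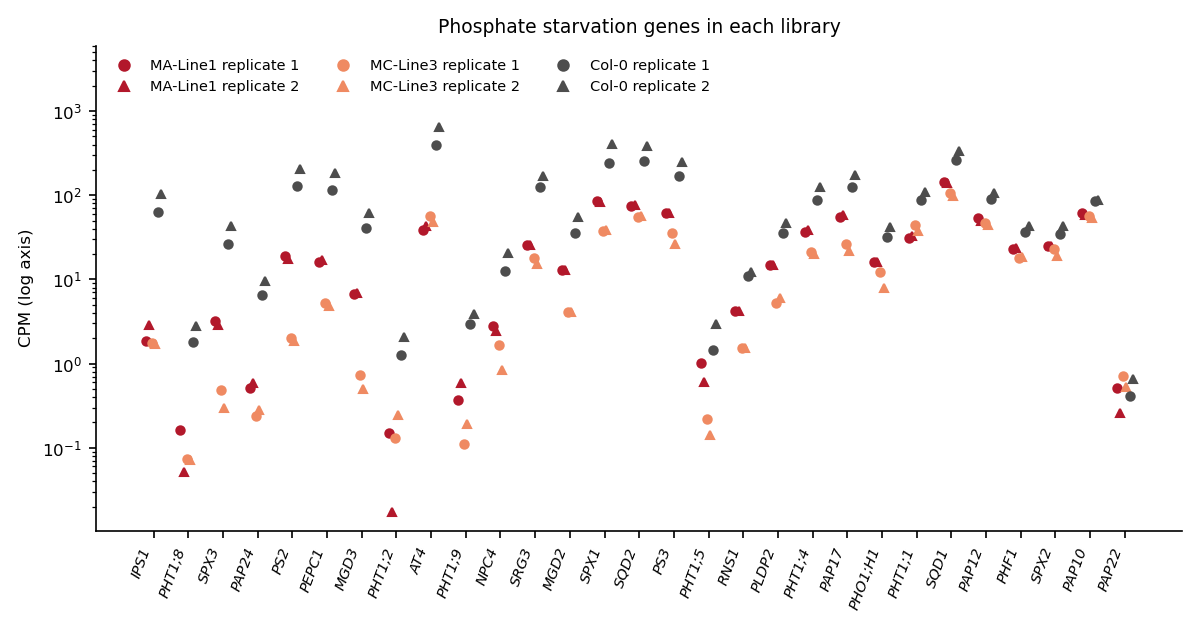
CPM on a log axis of each tested phosphate starvation gene in each library, ordered from the largest to the smallest decrease. The 4 transgenic libraries lie below both Col-0 libraries for 28 of the 29 genes, PAP22 being the exception.

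The number of phosphate genes called rested on both Col-0 libraries. It was 17 without Col-0 replicate 1 and 8 without replicate 2, against 27 or 28 without any 1 transgenic library and 21 with the replicate number as a block. IPS1, AT4, PHT1;8, PAP24, SRG3, SQD2, PHT1;1 and PAP12 were called in each of the 6 fits that left out a library, whereas SPX3 had an adjusted p of 0.0645 without Col-0 replicate 1 and 0.104 without replicate 2. Beside the summed level of these genes, the 12 root markers summed to 52.8 and 59.1 CPM in MA-Line1, 81.3 and 80.1 CPM in MC-Line3, and 89.9 and 98.6 CPM in Col-0, and their part in the result was not tested. The motif P1BS (both strands) was found upstream of 9 of the 29 genes (31%), among them AT4, SPX3, PAP24, MGD2 and NPC4. It was found in 6.62% of all windows, in 10.4% of the windows of common decreases and in 5.39% of those of common increases. Among changes of more than 2-fold the shares were 15.7% for decreases and 8.05% for increases.

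Other genes with the largest decreases had no listed role in phosphate. AT5G17340 (chr5:5715624-5716268), a putative membrane lipoprotein, had 0.0148 and 0.0348 CPM in MA-Line1, 0.037 and 0.0177 CPM in MC-Line3, and 4.88 and 6.04 CPM in Col-0 (log2 fold change -7.63, SE 0.31, adjusted p = 0.000341). A gene on the other strand, AT5G17345, overlaps 75.2% of its span, and since the strand setting of the counting is not stated, reads of the pair cannot be told apart. AT1G19210 (chr1:6626794-6627688), an AP2-type DNA-binding protein, had 0.0296 and 0.157 CPM in MA-Line1, 0.0185 and 0.159 CPM in MC-Line3, and 7.61 and 9.53 CPM in Col-0 (-6.55, SE 0.52, adjusted p = 0.0027). OCT1 (chr1:27538190-27540235), an organic cation and carnitine transporter, had 0.281 and 0.261 CPM in MA-Line1, 0.388 and 0.583 CPM in MC-Line3, and 10.1 and 15.4 CPM in Col-0 (-5.08, SE 0.32, adjusted p = 0.00158). These 3 genes were nearly off in both lines, with no line difference called, and each was called in every fit that left out a library. AT1G21529, a locus with no product named and 33.8% of its span repeated elsewhere, fell by 6.34 (adjusted p = 0.00498 and 0.0581 without Col-0 replicate 2).

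Among jasmonate genes the common changes were mostly decreases. This lipid hormone of wounding and defence is made from linolenic acid by lipoxygenases and cyclases, and its receptor removes JAZ repressors from the regulator MYC2. The G-box (CACGTG, a palindrome known to be bound by MYC2) was found upstream of 5 of the 17 signalling and response genes (29.4%), against 7.91% of all windows. Of these 5, JAZ2, JAZ7 and AT3G22275 were common decreases, and JAZ3 and JAZ8 were not called. The share was 33.3% for the clock genes, 33.3% for the stress-responsive ERF genes and 12.9% for common decreases of more than 2-fold. Of the 17 signalling and response genes 7 were lower in common and none higher (median log2 fold change -1.0). MYC2 (chr1:11798119-11801407) had 76.8 and 77.5 CPM in MA-Line1, 57.1 and 54.3 CPM in MC-Line3, and 236 and 311 CPM in Col-0 (log2 fold change -2.04, SE 0.18, adjusted p = 0.0028). A gene annotated on the other strand, AT1G32630, covers 98.5% of its span. JAZ7 and AT3G22275, a jasmonate ZIM-domain gene, fell by 2.06 and 2.23 (adjusted p = 0.0102 and 0.0173), JAZ10 by 1.33, JAZ2 by 1.25 and JAZ9 by 1.0. COI1, the receptor, had a log2 fold change of -0.23 and was not called (adjusted p = 0.165). Of 16 genes of synthesis and catabolism, 5 were lower and 2 higher (median -0.70). LOX3 (chr1:5977323-5981521), a lipoxygenase of the pathway, had 22.3 and 21.8 CPM in MA-Line1, 17.1 and 17.5 CPM in MC-Line3, and 46.3 and 56.5 CPM in Col-0 (-1.38, SE 0.14, adjusted p = 0.00373), and LOX4, AOC1, AOS and the catabolic CYP94B1 were also lower. LOX2 went the other way (0.70, adjusted p = 0.00498), as did the sulfotransferase ST2A (0.60, adjusted p = 0.0459). Without Col-0 replicate 2, 3 signalling genes were lower, and 1 synthesis gene was lower and 1 higher. MYC2, JAZ10, JAZ9, LOX3 and LOX2 were called in every fit that left out a library, while without Col-0 replicate 1 and without replicate 2 the adjusted p was 0.0539 and 0.0858 for JAZ7, 0.0682 and 0.127 for AT3G22275, 0.0651 and 0.122 for LOX4 and 0.0895 and 0.146 for CYP94B1.

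Rapidly induced stress regulators had common decreases and no common increase. Of 12 CBF and ZAT regulators, transcription factors of cold and oxidative stress, 7 were lower in common and none higher (median log2 fold change -1.33). CBF2 (chr4:13015250-13016235) had 4.01 and 3.55 CPM in MA-Line1, 4.46 and 4.29 CPM in MC-Line3, and 26.1 and 26.5 CPM in Col-0 (log2 fold change -2.69, SE 0.11, adjusted p = 0.000341). Its groups were far apart and tight, a pattern that the test favours, with no line difference called. The call was kept in every fit that left out a library, although 18.7% of the span of CBF2 is shared with CBF1 and DREB1A. CBF1 fell by 2.34 (adjusted p = 0.0185, 0.0838 without Col-0 replicate 1 and 0.12 without replicate 2). Of 12 stress-responsive ERF genes, 7 were lower and none higher (median -1.45). RRTF1 (chr4:16451876-16453260), a factor of the redox response, had 2.38 and 1.48 CPM in MA-Line1, 0.351 and 0.212 CPM in MC-Line3, and 37.8 and 43.7 CPM in Col-0 (-5.17, SE 0.70, adjusted p = 0.00714 and 0.0637 without Col-0 replicate 2). ERF13 fell by 2.60 (adjusted p = 0.014) and ERF4, a repressor of jasmonate and ethylene responses, by 1.5 (adjusted p = 0.00652). The lines differed in 11 of the 12 ERF genes, each higher in MA-Line1, and genes on the other strand overlap 69.5% of RRTF1 and the whole span of ERF105. Without Col-0 replicate 1 or replicate 2 the common decreases were 1 and 1 of the CBF and ZAT genes and 2 and 0 of the ERF genes.

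Of 10 immune ubiquitin ligases and deadenylases 5 were lower and none higher (median -1.38). PUB23 (chr2:15082855-15084559), a U-box ligase that dampens immune signalling, had 31.2 and 33.6 CPM in MA-Line1, 24 and 21.1 CPM in MC-Line3, and 90.5 and 99.6 CPM in Col-0 (log2 fold change -1.79, SE 0.18, adjusted p = 0.00373), and its call held without any 1 library. A gene on the other strand overlaps 57.9% of its span. CAF1a, BAP1, PUB22 and ATL2 were the others, falling by 1.96, 1.93, 1.58 and 1.2. BAP1 is on the list although its product name, BON association protein 1, is of neither kind. Without Col-0 replicate 1 or 2, PUB23 was the 1 member still called. Of 16 WRKY and MYB regulators 3 were called, against 15.5% of all genes tested, with WRKY40 (-1.90, adjusted p = 0.0186) and WRKY22 (-0.79, adjusted p = 0.00696) lower and WRKY18 (0.46, adjusted p = 0.0121) higher, and no member was called without Col-0 replicate 1 or without replicate 2. Of 12 touch and calcium sensor genes CML43 was lower (-1.33) and CAM1 higher (0.35), and the median was -0.82. Neither was called without Col-0 replicate 1 (adjusted p = 0.064 and 0.113) or without replicate 2 (0.145 and 0.142).

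Abscisic acid genes held common decreases and no increase. This hormone of drought and dormancy acts through type 2C protein phosphatases, whose genes it induces as feedback. All 16 members tested had a negative log2 fold change (median -0.76), and 10 were lower in common, against 6 on library size alone. HAI1 (chr5:23894404-23896939), a phosphatase of this kind, had 7.14 and 8.02 CPM in MA-Line1, 5.7 and 5.48 CPM in MC-Line3, and 19 and 28.1 CPM in Col-0 (log2 fold change -1.84, SE 0.20, adjusted p = 0.00453). NCED3, the rate-limiting enzyme of synthesis under drought, had 1.79 and 1.81 CPM in MA-Line1, 3.05 and 2.17 CPM in MC-Line3, and 6.35 and 8.76 CPM in Col-0 (-1.78, SE 0.25, adjusted p = 0.00795 and 0.0736 without Col-0 replicate 2). The phosphatases HAI2, ABI1, ABI2 and HAB1 were lower by 1.75, 0.78, 0.74 and 0.57. A line difference was called in 4 of the 16 genes. Among 15 dehydrins and cold-regulated proteins, which protect cells during water loss, 8 were lower (median -0.51). RAB18 (AT5G66400, chr5:26518277-26519447) had 12.4 and 9.84 CPM in MA-Line1, 26 and 26 CPM in MC-Line3, and 75.8 and 100 CPM in Col-0 (-2.25, SE 0.39, adjusted p = 0.0144), MA-Line1 being lower by 1.22. GolS2, galactinol synthase, had 1.71 and 2.17 CPM in MA-Line1, 1.96 and 1.43 CPM in MC-Line3, and 6.05 and 9.97 CPM in Col-0 (-2.14, SE 0.24, adjusted p = 0.00481). COR15A and COR15B, targets of the CBF factors in freezing tolerance, had log2 fold changes of 1.19 and 1.75 and were not called (adjusted p = 0.124 and 0.184). Without Col-0 replicate 2 the common decreases were 2 in each list, and HAI1, RD26, GolS2 and RD20 were called in every fit that left out a library; RAB18 had an adjusted p of 0.0617 without Col-0 replicate 1 and 0.10 without replicate 2.

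Of 24 circadian clock genes 7 were lower and none higher, with a median log2 fold change of -0.22 that was -0.07 on library size alone. RVE1 (chr5:5690225-5692992), a MYB-like factor that links the clock to auxin and is known to peak at dawn, had 15.8 and 17.4 CPM in MA-Line1, 16.4 and 16.1 CPM in MC-Line3, and 45.7 and 46.7 CPM in Col-0 (log2 fold change -1.49, SE 0.07, adjusted p = 0.000456). EPR1, a relative of it, had 19.8 and 21 CPM in MA-Line1, 23.7 and 22.9 CPM in MC-Line3, and 47 and 39.8 CPM in Col-0 (-0.99, SE 0.10, adjusted p = 0.00386), and 69.3% of its span recurs in AT3G10113 or MEE67. The core genes CCA1, LHY and TOC1 had log2 fold changes of -0.49, -0.06 and -0.04 and were not called. RVE1, EPR1 and ZTL held in every fit that left out a library, and 4 members were lower without Col-0 replicate 1 and 4 without replicate 2; PRR9 (-0.95, with 34.5% of its span shared with AT2G46670) had an adjusted p of 0.00654 and of 0.0562 without Col-0 replicate 2.

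Abundant genes of photosynthesis and water transport held common decreases of small size. All 23 photosystem, antenna and Rubisco genes had a negative log2 fold change (median -0.33), which was -0.18 on library size alone, and 4 were called, against 2 on library size alone. RCA (chr2:16570746-16573692), Rubisco activase, had 5910 and 5810 CPM in MA-Line1, 7380 and 7290 CPM in MC-Line3, and 10900 and 10400 CPM in Col-0 (log2 fold change -0.69, SE 0.14, adjusted p = 0.0213). It was lost without MA-Line1 replicate 2 (adjusted p = 0.0521), Col-0 replicate 1 (0.114) or Col-0 replicate 2 (0.104). LHCB2.1 and LHCB2.2, antenna proteins that share over 37% of their spans, fell by 0.55 and 0.51 (adjusted p = 0.0392 and 0.0432), and no gene of this list was called without Col-0 replicate 1 or without replicate 2. Of 19 aquaporins 5 were lower (median -0.46), among them PIP1B, with 663 and 718 CPM in MA-Line1, 833 and 801 CPM in MC-Line3, and 1270 and 1240 CPM in Col-0 (-0.73, SE 0.11, adjusted p = 0.00938, 0.0601 without Col-0 replicate 1 and 0.0681 without replicate 2). MA-Line1 was lower than MC-Line3 in each of the 13 photosynthesis genes and 13 aquaporin genes where the lines differed, the order seen in the root markers, whose part was not tested.

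Among cell wall and lipid transfer genes there were calls in both directions. XTR6 (chr4:13128394-13129927), a xyloglucan endotransglycosylase that remodels walls, had 65 and 65.7 CPM in MA-Line1, 67.1 and 61.6 CPM in MC-Line3, and 33.6 and 28.2 CPM in Col-0 (log2 fold change 1.07, SE 0.09, adjusted p = 0.0027), whereas XTH19 and XTH24 of the same family fell by 0.57 and 0.41. On library size alone 3 of the 9 XTH genes tested were higher and none lower, and XTH19 was also lost in 5 of the 6 fits that left out a library (adjusted p = 0.0583 to 0.221). Without either MA-Line1 library, MC-Line3 replicate 2 or Col-0 replicate 2 no XTH gene was lower. XTH33 rose by 2.08 (adjusted p = 0.0468) and was lost without 5 of the 6 libraries (adjusted p = 0.0582 to 0.233). LTP4 (chr5:23924990-23925957), a lipid transfer protein of the surface, had 11.1 and 8.9 CPM in MA-Line1, 6.38 and 5.78 CPM in MC-Line3, and 37.3 and 72.9 CPM in Col-0 (-2.78, SE 0.32, adjusted p = 0.00488), and its neighbour LTP3 had 15.8 and 13.6 CPM in MA-Line1, 15.3 and 16.1 CPM in MC-Line3, and 41.5 and 67.1 CPM in Col-0 (-1.84, SE 0.17, adjusted p = 0.00325). LTP2 and LTP6 rose by 0.45 and 0.77 (adjusted p = 0.0106 and 0.00828), so that the family had 2 genes higher and 2 lower of 6, with a median of -0.09 that was 0.06 on library size alone. XTR6, LTP3 and LTP4 were called in every fit that left out a library, and LTP6 had an adjusted p of 0.0713 without Col-0 replicate 1 and 0.0645 without replicate 2. The expansins EXPA8 and EXPA1, which loosen walls, fell by 1.15 and 1.0, and the auxin-conjugating GH3.3 rose by 0.92, so that 1 gene was higher and 3 lower of the 14 auxin and expansin genes (median -0.25). Without Col-0 replicate 2 none of these 14 was called.

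The remaining lists held few common changes. Over all genes tested 7.44% were common and higher and 8.08% common and lower, and at those shares lists of this size would hold few. All 8 cell division genes had a positive log2 fold change (median 0.37), and the mitotic cyclin CYCB1;1 was called, with 5.08 and 4.89 CPM in MA-Line1, 5.92 and 6.24 CPM in MC-Line3, and 2.98 and 2.84 CPM in Col-0 (log2 fold change 0.93, adjusted p = 0.013, 0.0721 without Col-0 replicate 1 and 0.0925 without replicate 2), whereas on library size alone 6 of the 8 were higher. Mitochondrial retrograde and xenobiotic response genes had 2 increases (AT2G21640 and OPR2) and 1 decrease (AT5G09570) among 14, and the thalianol and marneral clusters of root triterpenes 2 decreases (MRN1 and CYP705A12) among 7. Of 16 flavonoid genes tested DFR was higher (2.0) and MYB12 lower (-0.85), and of 20 iron genes NAS4 was higher (0.89), whereas on library size alone 2 flavonoid genes and 2 iron genes were higher. Of 18 aliphatic glucosinolate genes 2 were lower (SOT18 and CYP83A1, -0.41 and -0.34), and on library size alone the median was 0.00, neither was called and 2 other members were higher. Of 12 nitrogen genes NIA2, nitrate reductase, was lower (-0.62), the list median being -0.05 and 0.10 on library size alone, and of 12 sugar starvation genes TPS9 was lower (-0.58), and not on library size alone. Without Col-0 replicate 2 none of the 13 calls named so far in this paragraph remained (adjusted p = 0.053 to 0.264). None of 20 heat shock and chaperone genes was called in common, although their median was 0.30, and the lines differed in 18 of them, each higher in MA-Line1. Over the 33 lists, 491 distinct genes were tested, 36 of them higher and 118 lower in common.

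**Figure D4:**
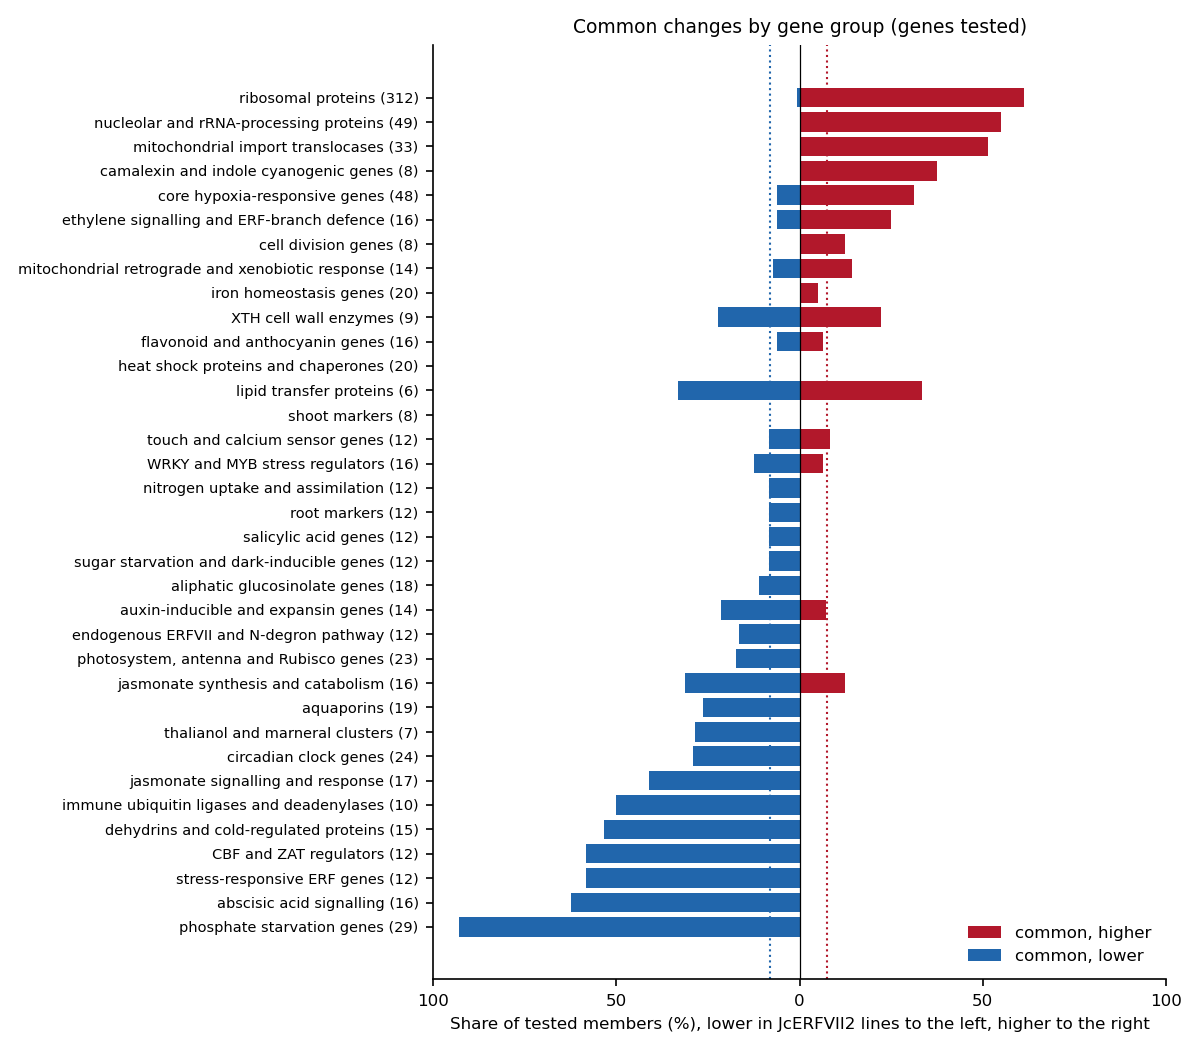
Share of the tested members of each group that were common and higher (right) or common and lower (left) in the JcERFVII2 lines, with the number tested in parentheses and dotted lines at 7.44% and 8.08%, the shares over all genes tested. The phosphate starvation genes reach farthest to the left (27 of 29) and the ribosomal proteins farthest to the right (191 of 312); the groups for ribosomes, the nucleolus and mitochondrial import were collected after the calls had been seen.

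A common change need not be an equal one. The contrast of MA-Line1 with MC-Line3, in a fit with a mean for each genotype, called 4242 of all tested genes different (20%), 2402 of them higher (11.3%) and 1840 lower (8.68%) in MA-Line1. Among the common increases 93 of 1577 differed between the lines (5.9%) and among the common decreases 374 of 1713 (21.8%). In the pooled fit a line difference counts as spread, so genes whose lines differ were less likely to be called, and this selection lowers the shares. Of the 149 increases of more than 2-fold, 33 differed between the lines (22.1%), 24 of them higher in MA-Line1. Of the 393 decreases of more than 2-fold, 174 differed (44.3%), 127 of them higher in MA-Line1, which for a decrease is the line closer to Col-0. The 95% interval of the line difference lay within 1.5-fold for 34 of the 149 and 62 of the 393. Both contrasts with Col-0 use the same Col-0 libraries, so their values are given side by side only. On the log2 scale, the change of RVE1 was -1.48 for MA-Line1 and -1.5 for MC-Line3, that of NIA2 -0.62 for both, and that of XTR6 1.08 for MA-Line1 and 1.06 for MC-Line3. In contrast, SPX3 had -3.53 for MA-Line1 and -6.48 for MC-Line3, and RAB18 -2.98 for MA-Line1 and -1.76 for MC-Line3. The rule of 1 side also leaves out genes that went opposite ways. MA-Line1 lay above and MC-Line3 below both Col-0 libraries for 783 genes, of which the lines were called different in 652, and the reverse held for 471 genes, 324 of them called different.

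**Figure D5:**
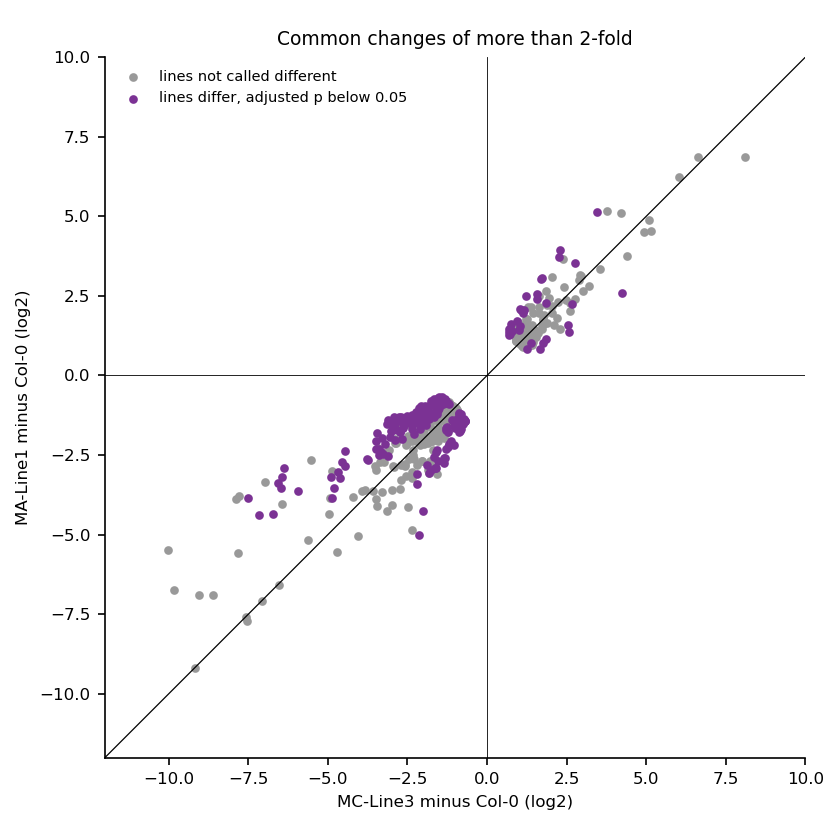
Log2 fold change against Col-0 in MA-Line1 (vertical) and MC-Line3 (horizontal) for the 542 common changes of more than 2-fold, with purple points where the lines were called different and a diagonal line for equal changes. Both axes share the Col-0 libraries, and the 174 decreases called different lie mostly above the diagonal, where MA-Line1 is closer to Col-0; values of genes with no counts in a line depend on the prior count.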

How the data were processed

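RNA-seq of 6 libraries was analysed. The deposited counts are raw reads per gene made by the authors, who trimmed paired-end reads, aligned them with TopHat2 to TAIR10 and counted them with HTSeq; the strand setting and the treatment of multiply mapped reads are not given in the sources used here. Count columns of MC-Line3 carry another line number than its labels and were assigned by construct and replicate. Counts were scaled by TMM, filtered by filterByExpr and tested with edgeR 4.0.16 (quasi-likelihood, Benjamini-Hochberg) in R 4.3.3, with the 4 transgenic libraries as 1 group, so that differences between lines count as spread; a second fit with a mean per genotype gave the line contrast. CPM was computed here from TMM-scaled library sizes. A list's counts and median are descriptive, and no set was tested. The libraries hold 53084008 to 65271057 counts, and intervals on counts cover counting error only. DESeq2 1.42.0, limma 3.58.1 and other designs were the alternatives. Tested on simulated counts with 200 changed genes, the fit recovered 98 of 100 changes of log2 size 1 and 100 of 100 of size 2, by the rule used here. The simulated dispersion was below the common dispersion of the pooled fit (0.0323). Only genes without low counts were changed, equally in all 4 transgenic libraries and with no line difference. Recovery in these data may therefore be lower.

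Genes were named as the 10 largest common increases and 10 largest common decreases with a mean of at least 1 CPM in the higher group, and up to 3 largest common changes per list; members of a list under discussion, and genes given as chosen after their values were seen, were named as well. The comparison, the lists and the members were chosen with earlier results of these data known. Gene positions and sequences are from TAIR10.1 (RefSeq), which held 97.3% of the listed genes; 8 motifs were searched in the 300 bases upstream of 21057 tested genes. Both replicates of a group share numbers with those of other groups, but same-numbered libraries did not deviate together (correlations -0.053 to 0.032).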

Additional observations from a re-analysis of the deposited data

Results flagged for a closer look

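The sizes of 40 of the 85 named common changes differed between the lines, by the edgeR quasi-likelihood test of MA-Line1 minus MC-Line3. In 26 of them MA-Line1 was the higher line. Among genes lower than Col-0 in both lines, this difference on the log2 scale was 2.95 for SPX3, 2.79 for RRTF1, 1.64 for ZAT7, 1.41 for ERF13 and 1.41 for ERF105. It was 1.38 for CAF1a, 1.26 for AT3G22275, 1.22 for BAP1, 1.14 for WRKY40 and 0.989 for JAZ7, and 0.558 for LOX4, 0.52 for PUB23, 0.47 for MYC2 and 0.352 for LOX3. In these genes MC-Line3 lay farther from Col-0. Among genes higher than Col-0 it was 1.69 for PDF1.2C, 1.68 for NUDT24, 1.47 for AT1G60750, 1.33 for PCO1 and 1.33 for CYP71A12. It was 1.25 for DFR, 0.884 for AT2G21640, 0.781 for PDF1.2, 0.498 for GH3.3, 0.41 for HB1, 0.373 for OPR2 and 0.249 for LTP6, and here MA-Line1 lay farther from Col-0.

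In 14 genes MA-Line1 was the lower line. The difference was -2.85 for MRN1, -1.27 for LTI65, -1.25 for CYP705A12, -1.22 for RAB18 and -1.22 for CYP94B1 on the log2 scale. It was -0.52 for EXPA1, -0.424 for EXPA8, -0.324 for RCA, -0.315 for LHCB2.1, -0.304 for LHCB2.2, -0.279 for PIP1;5 and -0.243 for PIP1B. These 12 genes were lower than Col-0 in both lines, MA-Line1 lying farther away. The other two were higher than Col-0 in both lines, with differences of -1.2 for XTH33 and -0.438 for AAD6, and there MC-Line3 lay farther away.

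In 4 of the 85 genes 1 of the 4 transgenic libraries stood apart from the other 3, which chance alone gives in about 1 in 20 groups. MA-Line1 replicate 2 stood at 0.0348 CPM for G3Pp3, where the others had 0 counts, and at 2.85 CPM for IPS1. MA-Line1 replicate 1 stood at 27.5 CPM for SCR and MC-Line3 replicate 1 at 41.6 CPM for the aquaporin RD28. By the rule that chose these genes, none of these libraries could reach the level of a Col-0 library.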

How the results depend on the processing

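The 3290 calls, all of them common changes (1577 higher, 1713 lower, 542 of more than 2-fold), kept within 1.5 times of these counts under DESeq2 size factors, both other filters on low counts, the DESeq2 Wald test and limma voom. The 467 with a line difference did so under DESeq2 size factors and both filters, and were not counted with the Wald test or limma voom. With the likelihood ratio test 894 common changes had a line difference. On library size alone 3822 were higher and 1037 lower, and 2611 of the 3290 (79.4%) remained. A mean per genotype, which takes line differences out of the spread, called 8183 genes, of which 3380 were common and higher, 3625 common and lower and 973 of more than 2-fold, and it held all 3290. MA-Line1 alone against Col-0 gave 7199 calls (3411 higher, 3788 lower, 1557 of more than 2-fold) and MC-Line3 alone 5215 (2971 lower, 996 of more than 2-fold). Leaving out 1 library gave 303 to 2603 calls, 80 to 1214 higher, 223 to 1389 lower, 119 to 518 of more than 2-fold and 40 to 197 with a line difference. The lowest of each range was without Col-0 replicate 2, where 286 of the 3290 calls (8.69%) remained, and 790 (24%) remained without Col-0 replicate 1. The fits that left out a Col-0 library had 1 Col-0 library, which is assumed to vary like the transgenic ones.

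With the replicate number as a block, although same-numbered libraries did not deviate together, 1674 genes were called (781 higher, 893 lower, 345 of more than 2-fold, 186 with a line difference). No named gene changed direction under any of these settings, which the rule that chose them, with all transgenic libraries on 1 side of Col-0, largely fixes in advance. Of the 85 named genes, 85 kept their call under DESeq2 size factors, 76 on library size alone, 77 with limma voom, 59 with the block, 37 without Col-0 replicate 1 and 24 without Col-0 replicate 2. Genes near 0 counts in 1 group have folds that depend on the prior count, and small changes rest on the scaling, since the median log2 fold change of all genes is 0.17 on library size alone and 0.018 with TMM.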

Other observations

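Further groups were collected by words of the RefSeq product names after the calls had been seen, and are given as a description. Of 42 genes with the word proteasome in their product names, 9 were common and higher (21.4%, against 7.44% of all genes tested) and none lower. Their median log2 fold change was 0.22. On library size alone 25 were higher, and with TMM none was called without Col-0 replicate 1 or without replicate 2. PAG1, a subunit of the core ring, had 107 and 109 CPM in MA-Line1, 101 and 101 CPM in MC-Line3, and 79 and 79.2 CPM in Col-0 (log2 fold change 0.40, adjusted p = 0.0138). The increases also held COP8, COP13 and AT5G15610, named as proteins with a proteasome component domain, and FUS12, named as of the proteasome family. Decreases prevailed among 264 RING and U-box proteins, with 38 lower (14.4%, against 8.08% of all genes tested) and 5 higher, although on library size alone 20 were lower and 23 higher. Of 183 cytochromes P450, 31 were lower (16.9%) and 4 higher, and of 163 disease resistance proteins 22 were lower (13.5%) and 3 higher. On library size alone 25 P450 genes were lower and 7 higher, and 11 disease resistance genes were lower and 4 higher. Without Col-0 replicate 2 the decreases of these 3 groups numbered 5, 4 and 1. CYP707A2, which catabolises abscisic acid, had 6.55 and 7.17 CPM in MA-Line1, 5.92 and 5.71 CPM in MC-Line3, and 15 and 13.8 CPM in Col-0 (log2 fold change -1.18, adjusted p = 0.00373).

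Some genes on no list were called in each of the 6 fits that left out a library, and were chosen here after their values were seen. ORA47, an AP2 factor that is known to activate jasmonate synthesis genes, had 12.5 and 12.9 CPM in MA-Line1, 12.1 and 9.44 CPM in MC-Line3, and 133 and 175 CPM in Col-0 (log2 fold change -3.71, SE 0.15, adjusted p = 0.000341). PPCK1, a kinase that activates phosphoenolpyruvate carboxylase, had 18.1 and 19.4 CPM in MA-Line1, 17.5 and 17.4 CPM in MC-Line3, and 61.9 and 94.9 CPM in Col-0 (-2.12, SE 0.15, adjusted p = 0.00222). In both genes the spread among the transgenic libraries was a small part of their distance from Col-0, a pattern that the test favours. GDPD2, a glycerophosphodiester phosphodiesterase, had 40.7 and 40.1 CPM in MA-Line1, 46.2 and 45.5 CPM in MC-Line3, and 126 and 101 CPM in Col-0 (-1.39, adjusted p = 0.00264). MYB96, a regulator of cuticular wax and drought responses, had 23.5 and 23.1 CPM in MA-Line1, 22.6 and 21.3 CPM in MC-Line3, and 49 and 48.4 CPM in Col-0 (-1.11, adjusted p = 0.0015). SIGE, a sigma factor of plastid transcription, had 43.4 and 40.8 CPM in MA-Line1, 52.5 and 47.2 CPM in MC-Line3, and 112 and 107 CPM in Col-0 (-1.26, adjusted p = 0.0027). Among increases, the NAC factor NAC044, known from the DNA damage response, had 8.59 and 8.44 CPM in MA-Line1, 7.62 and 7.97 CPM in MC-Line3, and 2.14 and 1.66 CPM in Col-0 (2.1, SE 0.15, adjusted p = 0.00222). ACC2, a plastid acetyl-CoA carboxylase, had 16.2 and 17.2 CPM in MA-Line1, 17.7 and 18 CPM in MC-Line3, and 6.94 and 8.05 CPM in Col-0 (1.2, adjusted p = 0.0027).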
